A study of Mus musculus with 11 samples.

Results

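The 75 genes described here belong to the families of enzymes and small proteins with which a cell neutralises reactive oxygen, reactive aldehydes and foreign chemicals; 1 of them, Gstm2-ps1, is a pseudogene by its symbol. They were chosen by gene symbol and by a mean count of at least 10: the glutathione S-transferases (18 genes), aldehyde dehydrogenases (15, without Aldh1l1), aldo-keto reductases (8), carbonyl reductases (4), glutathione peroxidases (5), peroxiredoxins with sulfiredoxin (7), thioredoxins with their reductases (5), superoxide dismutases with catalase (4), metallothioneins (3), the enzymes that make and reduce glutathione (3), and the haem oxygenases with the quinone reductase Nqo1 (3). The deposited table holds 17118 genes. A further gene, Gsta2, matched by symbol but had a mean count of 7.45 and was left out. The 75 genes took between 0.377% and 0.428% of the counts of a library.

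The study measured RNA from the hippocampus of female C57/BL6 mice (genotype label C57/BL6J), 12 weeks old, injected into the peritoneum once a week, 8 times in all. For AC-T the first 4 injections were doxorubicin at 2 mg/kg with cyclophosphamide at 50 mg/kg, and the last 4 were paclitaxel at 5 mg/kg, a schedule modelled on breast cancer chemotherapy. The control group received 0.9% saline, and the samples carry a 1 month label. Polyadenylated RNA from a 0.2 mm punch of frozen coronal tissue was sequenced from 11 mice, 1 per library. The 5 given AC-T are numbered 501, 502, 503, 600 and 602; the 6 controls are 201, 202, 203, 300, 301 and 302.

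These enzymes are tied to the drugs given. Doxorubicin is a quinone that can cycle between oxidised and reduced forms and so produce superoxide, which superoxide dismutases turn into hydrogen peroxide for catalase, glutathione peroxidases and peroxiredoxins to remove; carbonyl and aldo-keto reductases convert the drug to its alcohol. Cyclophosphamide becomes aldophosphamide, which Aldh1a1 and Aldh3a1 can oxidise to an inactive acid, and its toxic products acrolein and phosphoramide mustard are joined to glutathione by glutathione S-transferases. Many of these genes are targets of NRF2 (gene Nfe2l2), a transcription factor that its partner Keap1 marks for degradation until oxidants or electrophiles modify Keap1; NRF2 then binds antioxidant response elements near its targets.

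In the comparison of the 5 AC-T with the 6 saline libraries 4 of these genes passed the test: Aldh1a1, Gstt3 and Gstz1 fell and Aldh1b1 rose. Stretches of 100 bases directly upstream of the 4 genes are shown so that the genes the results turn on can be located. They come from the RefSeq promoter windows of build GRCm38.p6, while the submitters' processing notes name GRCm39 for the counts. Aldh1a1 lies on the plus strand and is shown at chr19:20601861-20601960, from 107 to 8 bases before its annotated start. The Aldh1b1 stretch is chr4:45798922-45799021 (plus strand), that of Gstt3 is chr10:75781423-75781522 (minus strand), and that of Gstz1 is chr12:87147065-87147164 (plus strand). Each is written 5′ to 3′ on the strand of the gene, and capitals mark a CCAAT box, a common promoter element, read on either strand.
Aldh1a1: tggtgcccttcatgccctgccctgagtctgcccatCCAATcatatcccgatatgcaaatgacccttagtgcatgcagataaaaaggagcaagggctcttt
Aldh1b1: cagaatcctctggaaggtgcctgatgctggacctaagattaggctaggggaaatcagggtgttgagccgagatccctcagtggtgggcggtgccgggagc
Gstt3: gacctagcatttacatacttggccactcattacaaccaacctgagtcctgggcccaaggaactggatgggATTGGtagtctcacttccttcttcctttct
Gstz1: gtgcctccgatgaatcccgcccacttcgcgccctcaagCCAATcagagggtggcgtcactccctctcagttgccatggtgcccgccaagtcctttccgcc

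In all 4 genes a 300-base window (250 bases before to 50 after a start) held CCAAT on either strand, for Aldh1b1 outside the stretch printed. Aldh1a1, Gstt3 and Gstz1 have 2 windows each and Aldh1b1 has 1. A gene was counted if any of its windows matched, so genes with more windows had more chances to match. Of the 62 members with a window, 33 (53.2%) held it, against 41.1% of 27025 genes. The antioxidant response element core, TGACNNNGC on either strand, was in the window of 11 of the 62 (17.7%), against 14% of all genes with a window, and 0 of these 11 passed the test, where 8.47% of all genes tested did, a share too small to tell from 0 of 11.

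The libraries held 23.4 to 32.1 M counts each (M, mega). All 11 libraries held markers of CA1 pyramidal and dentate granule neurons, the main cells of the hippocampus, but also markers of thalamus, neocortex and choroid plexus. The summed level of 9 CA1 markers, in CPM (read counts scaled to a common library size), was 527 to 684 after AC-T and 139 to 437 after saline, without overlap, and 1 of the 9 was called higher. For 9 dentate markers the sums were 286 to 477 and 347 to 513 CPM, with 0 called. The summed level of 18 thalamic and habenular markers was 808 to 1146 CPM after AC-T and 1486 to 2207 CPM after saline, and 14 of the 17 tested were lower after AC-T. Neocortical markers summed to 334 to 376 CPM after AC-T and 252 to 324 CPM after saline, with 6 of 11 higher and 1 lower. The mouse numbers fall into series 5 and 6 for AC-T and 2 and 3 for saline by their first digit, whose meaning is not given. No series holds both treatments, so series and treatment cannot be told apart. Xist, which female cells express, was listed at 0 in saline 300.

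To ask whether AC-T altered the expression of these enzymes, 73 of the 75 genes (all but Akr1b8 and Gsto2, which the count filter removed) were tested within a fit of all 15353 genes above the count filter. At an adjusted p under 0.05, 4 of 73 (5.48%) passed, 1 higher and 3 lower, against 8.47% of all genes tested (4.89% higher and 3.58% lower). An unadjusted p under 0.05 was reached by 18 of 73 (24.7%), 6 higher and 12 lower, against 24.9% of all genes. The groups did not overlap for 3 members (4.11%), Aldh1a1, Aldh1b1 and Gstz1, against 7.52% of all genes. These shares lie near or below those of the whole table. The log2 fold change, AC-T minus saline, was below 0 for 46 of 73 (63%) against 50.6% of all genes, and its median was −0.04 for the members and 0.00 for all genes. That direction was not kept with marker scores (mean log2 CPM of a list) as covariates. The members' median was 0.05 with the thalamic score (32.9% below 0, against 47.6% of all genes). It was 0.03 with the endothelial score (42.5% against 49%) and 0.00 with the astrocyte score (49.3% against 50.4%). The thalamic scores of the groups did not overlap. The endothelial scores barely did, at 4.83 to 5.14 after AC-T and 5.11 to 5.26 after saline. Those scores and the treatment can barely be told apart, so the sign in those fits says little. Most differences were small: 61 members lay within 1.2-fold, and 59 had a 95% interval within 1.5-fold. Of the 11 families, 9 had no member past the threshold in edgeR, and 4 had none in DESeq2. The count of 4 was 2 with series as a random effect (Aldh1a1 and Aldh1b1), 2 without AC-T 502, 600 or 602 or saline 202, 7 without AC-T 503, and 2 without saline series 2. It was 1 and 0 without AC-T series 5 and 6, and 0 with the thalamic, astrocyte or endothelial marker score as covariate. DESeq2 gave 11 and called 16.7% of all genes. Of all genes 1.91% passed with the random effect and 3.54% without saline series 2. Without AC-T series 5 and 6, 1.99% and 2.63% did. The share was 4.03%, 5.73% and 4.41% without AC-T 502, 600 and 602, 5.34% without saline 202, and 7.08% without AC-T 503. It was 0.00651%, 0.573% and 0.0521% with the thalamic, astrocyte and endothelial scores.

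**Figure D1:**
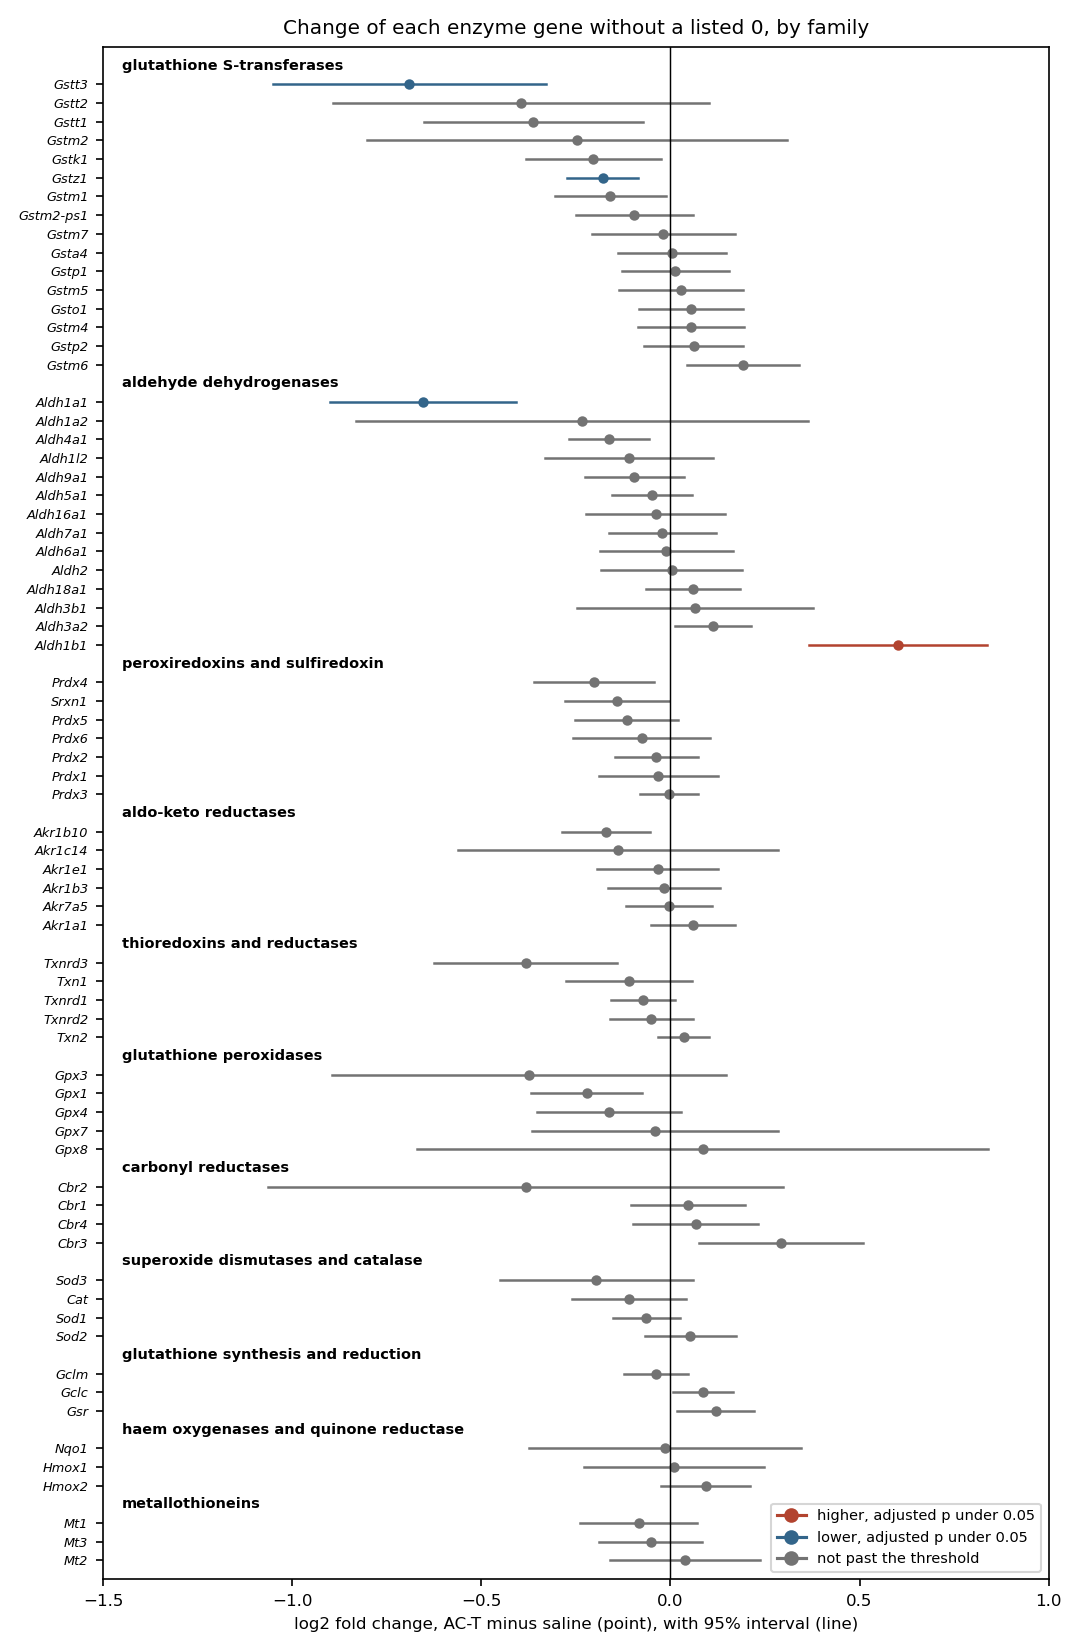
Each point is the log2 fold change of a gene, AC-T minus saline (x axis), and each line its 95% interval, for the 70 tested genes without a listed 0, grouped by family on the y axis. Aldh1a1, Gstt3 and Gstz1 (blue) and Aldh1b1 (red) passed the threshold, and the remaining genes (grey) did not.

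Among the aldehyde dehydrogenases 1 gene fell and 1 rose. Aldh1a1 (ENSMUSG00000053279), a cytosolic enzyme that makes retinoic acid from retinaldehyde and can inactivate aldophosphamide, was at 120, 67.9, 99.1, 86.9 and 91.5 CPM in AC-T mice 501, 502, 503, 600 and 602. In the saline mice its lowest, median and highest levels were 139, 145 and 160 CPM. Every AC-T library was thus below every saline library, with AC-T 502 the lowest of all. The mean fell from 146 ± 7.34 to 93.0 ± 18.8 CPM (SD, n = 6 and 5), a fold of 0.636 (95% interval 0.536 to 0.754, adjusted p = 0.00750). In these punches of bulk tissue, fewer cells of a type and less RNA per cell cannot be told apart. Of 14 astrocyte markers 4 were called lower after AC-T and 0 higher. Their summed levels overlapped, at 5416 to 7327 CPM after AC-T and 5571 to 6911 CPM after saline. The highest astrocyte sums of all libraries were those of AC-T 501 and 503 (7327 and 7217 CPM). Of 12 endothelial markers 1 was called lower (417 to 520 CPM after AC-T against 513 to 571 CPM after saline). With the astrocyte score as a covariate the log2 fold change of Aldh1a1 was −0.43 ± 0.10 (SE, adjusted p = 0.0825 in edgeR) in place of −0.65 ± 0.11. With the endothelial score it was −0.39 ± 0.12 (adjusted p = 0.276), and with the thalamic score −0.34 ± 0.21 (adjusted p = 1.00). The thalamic sums of the groups did not overlap, so that marker list and the treatment cannot be told apart. The endothelial sums barely overlapped, so that list and the treatment can barely be told apart.

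Aldh1b1 (ENSMUSG00000035561), a mitochondrial enzyme that oxidises acetaldehyde and retinaldehyde, moved in the opposite direction. It was at 9.37, 8.79, 7.45, 9.52 and 9.32 CPM in the AC-T mice, in the order above, and at 4.77, 5.69 and 7.18 CPM (lowest, median, highest) in the saline mice. Every AC-T library was above every saline library, with a narrow gap between AC-T 503 and saline 301. The mean rose from 5.86 ± 0.885 to 8.89 ± 0.850 CPM (SD, n = 6 and 5), a fold of 1.52 (1.29 to 1.78, adjusted p = 0.00916). Aldh1a1 and Aldh1b1 passed in each of the 11 fits that left out 1 library. The adjusted p in edgeR was between 0.00290 and 0.0241 for Aldh1a1 and between 0.00628 and 0.0273 for Aldh1b1. Aldh1a1 lost the call without AC-T series 6, and Aldh1b1 lost it without either AC-T series. Aldh1b1 also lost it with the endothelial score as covariate. With the astrocyte score as covariate the log2 difference of Aldh1b1 was 0.48 ± 0.13 (SE, adjusted p = 0.129), and with the thalamic score 0.45 ± 0.23 (adjusted p = 1.00).

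The other 13 aldehyde dehydrogenases did not pass in edgeR, and DESeq2 called 1 of them, Aldh4a1. Aldh2, the main mitochondrial acetaldehyde dehydrogenase, was at 92.2 ± 6.33 CPM after AC-T and 92.0 ± 12.2 CPM after saline, a fold of 1.00 (0.881 to 1.14, adjusted p = 0.987). Aldh4a1, which acts in mitochondrial proline degradation, came near the threshold (29.7 ± 1.48 against 33.3 ± 1.82 CPM, adjusted p = 0.0580 in edgeR) and passed with upper-quartile factors and without AC-T 503 or saline 201; it is named here after its value was seen. Aldh3a1, the other enzyme known to oxidise aldophosphamide, was barely detected, with listed counts of 40, 47, 39, 0 and 53 in the AC-T mice. It was listed at 43 in saline 202, 37 in saline 203 and 0 in the other 4 of the 6 saline mice (adjusted p = 0.620 in edgeR). The level summed over the 15 genes was 657 ± 44.7 CPM after AC-T and 717 ± 40.5 CPM after saline, and the groups overlapped.

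Of the glutathione S-transferases 2 of 17 tested fell and 0 rose in edgeR; DESeq2 called Gstt1 lower as well. Gstt3 (ENSMUSG00000001665), a theta-class enzyme, was at 6.40, 3.32, 4.82, 4.97 and 4.13 CPM in the AC-T mice and at 6.13, 7.50 and 10.04 CPM (lowest, median, highest) in the saline mice. The groups overlapped, since AC-T 501 lay above saline 201. The mean fell from 7.63 ± 1.34 to 4.73 ± 1.14 CPM (SD, n = 6 and 5), a fold of 0.620 (0.482 to 0.796, adjusted p = 0.0278). Gstt3 lost the call in 5 of the 11 fits that left out a library (AC-T 502, 600 or 602, saline 202 or 300), with adjusted p up to 0.0696. It also lost it with series as a random effect (adjusted p = 0.0886) and without any 1 of the 4 series. Its theta-class relatives Gstt1 and Gstt2 had folds of 0.778 (0.637 to 0.950, adjusted p = 0.112) and 0.760 (0.539 to 1.07, adjusted p = 0.316).

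Gstz1 (ENSMUSG00000021033), the zeta-class enzyme that isomerises maleylacetoacetate in tyrosine degradation, was at 35.3, 33.8, 33.9, 33.5 and 32.3 CPM in the AC-T mice. In the saline mice it was at 35.9, 38.0 and 42.0 CPM (lowest, median, highest), just above the AC-T range. The mean fell from 38.2 ± 2.10 to 33.7 ± 1.07 CPM (SD, n = 6 and 5), a fold of 0.883 (0.827 to 0.943, adjusted p = 0.0287). Gstz1 lost the call in 6 of the 11 fits without 1 library (AC-T 502, 600 or 602, saline 202, 203 or 301), with adjusted p up to 0.0717. It also lost it with series as a random effect (adjusted p = 0.108) and without saline series 2 or either AC-T series. Gstm5 and Gstm1, mu-class enzymes and the most abundant transferases by CPM here, did not pass: Gstm5 was at 180 ± 21.6 against 176 ± 10.4 CPM (fold 1.02, 0.909 to 1.14), and Gstm1 at 165 ± 16.3 against 184 ± 10.3 CPM (fold 0.896, 0.810 to 0.991, adjusted p = 0.164). Gstp1 of the pi class was at 38.3 ± 1.66 against 38.0 ± 3.51 CPM, a fold of 1.01 (0.915 to 1.11). Reads that fit several mu or pi genes are divided by estimation, and Gstm1, Gstm2-ps1, Gstp1 and Gstp2 were among 11 members with fractional counts, so their separate levels are uncertain.

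**Figure D2:**
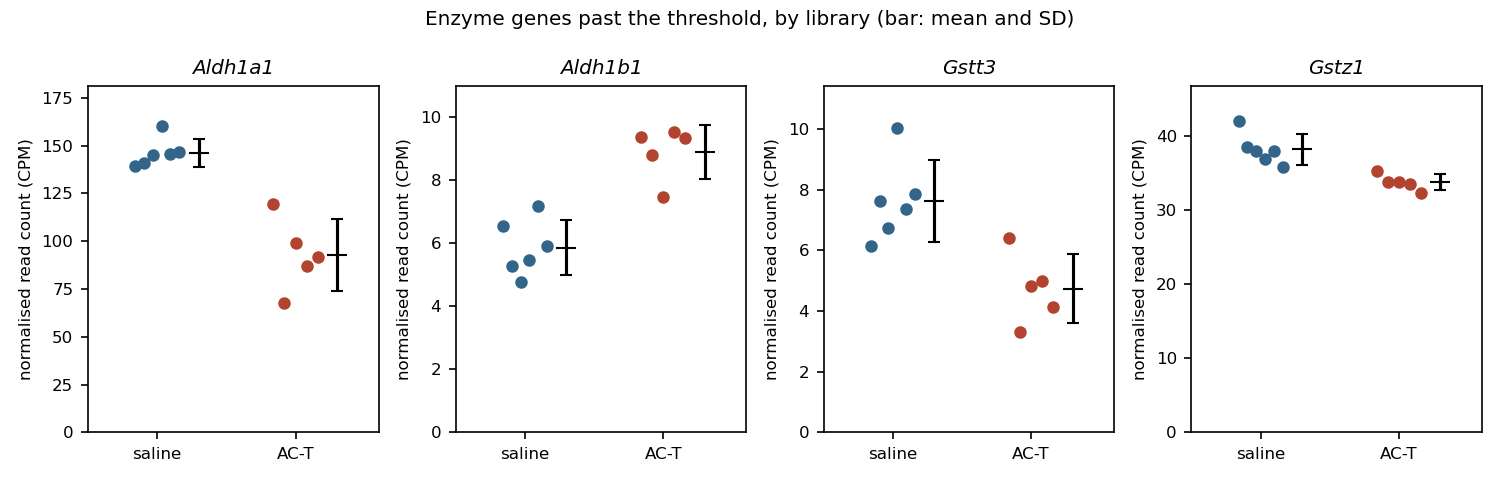
Points are single libraries and the y axis is the normalised read count in CPM, starting at 0, for the 4 genes past the threshold, with 6 saline (blue) and 5 AC-T libraries (red); black bars are the mean and SD. The groups are apart for Aldh1a1, Aldh1b1 and Gstz1, whereas for Gstt3 AC-T 501 (6.40 CPM) lies above saline 201 (6.13 CPM).

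None of the carbonyl or aldo-keto reductases, the families that reduce doxorubicin, passed in edgeR; Cbr3 and Akr1b10 alone had an unadjusted p under 0.05, and both passed in DESeq2. Cbr3 is a carbonyl reductase: it was at 9.15, 10.03, 8.78, 7.51 and 7.48 CPM in the AC-T mice and at 5.88, 7.10 and 8.08 CPM (lowest, median, highest) in the saline mice. AC-T 501, 502 and 503 were above all saline libraries, and AC-T 600 and 602 were within the saline range. The fold was 1.22 (1.05 to 1.42, adjusted p = 0.0925). Cbr1, the main doxorubicin reductase of the cytosol, was at 42.5, 47.3, 46.4, 45.0 and 46.2 CPM in the AC-T mice and at 37.9, 43.4 and 49.6 CPM in the saline mice. The AC-T values of Cbr1 lay inside the saline range, with a fold of 1.03 (0.931 to 1.15, adjusted p = 0.734). Akr1a1, aldehyde reductase, was the member with the highest CPM, which ran from 279 to 315 after AC-T and from 266 to 300.2 after saline (fold 1.04, 0.966 to 1.13, adjusted p = 0.515). Akr1b3, aldose reductase, was at 11.4 ± 0.357 and 11.5 ± 1.15 CPM (fold 0.988, 0.891 to 1.09, adjusted p = 0.909). Akr1b10 had the smallest p of its family, at 16.5 ± 1.09 and 18.5 ± 0.942 CPM (fold 0.889, 0.820 to 0.963, adjusted p = 0.0709).

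The enzymes that remove peroxides did not pass either in edgeR, where Gpx1, Prdx4 and Srxn1 had an unadjusted p under 0.05; DESeq2 called Gpx1 and Prdx4. Among the glutathione peroxidases 4 of 5 log2 fold changes were below 0. Gpx1, which reduces hydrogen peroxide in the cytosol, was at 57.1, 45.2, 55.4, 51.6 and 47.1 CPM in the AC-T mice and at 55.1, 59.0 and 65.5 CPM (lowest, median, highest) in the saline mice. AC-T 501 and 503 lay within the saline range and the other 3 AC-T libraries below it, a fold of 0.858 (0.774 to 0.950, adjusted p = 0.0652). Gpx4, which reduces lipid peroxides in membranes, was at 81.0 ± 11.2 against 90.7 ± 6.80 CPM (fold 0.893, 0.783 to 1.02, adjusted p = 0.273). For the peroxiredoxins and sulfiredoxin 7 of 7 log2 fold changes were below 0, from −0.20 for Prdx4 to 0.00 for Prdx3. Prdx4, of the endoplasmic reticulum, was at 12.9 ± 0.891 against 14.9 ± 1.40 CPM (fold 0.870, 0.779 to 0.971, adjusted p = 0.108). Prdx6 was at 199 ± 24.8 against 210 ± 17.1 CPM (fold 0.949, 0.836 to 1.08, adjusted p = 0.628).

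Thioredoxins pass electrons from NADPH to peroxiredoxins and other proteins, and thioredoxin reductases recharge them. Txnrd3, a thioredoxin and glutathione reductase, was the closest to the threshold of all members that missed it. It was at 3.22, 3.88, 4.46, 3.66 and 3.79 CPM in the AC-T mice and at 4.35, 4.86 and 5.86 CPM (lowest, median, highest) in the saline mice. Only AC-T 503 reached the saline range, and the fold was 0.767 (0.649 to 0.906, adjusted p = 0.0536). It passed in DESeq2, in limma-voom, with RLE or upper-quartile factors, with a robust dispersion and among genes above 0 in all libraries. Txn1, of the cytosol, was at 45.9 ± 4.71 against 49.5 ± 4.29 CPM (fold 0.927, 0.826 to 1.04, adjusted p = 0.416). Txn2, of mitochondria, was at 111 ± 3.23 against 109 ± 1.51 CPM (fold 1.02, 0.977 to 1.07, adjusted p = 0.540).

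None of the superoxide dismutases or catalase passed in edgeR or DESeq2, and 0 of the 4 genes had an unadjusted p under 0.05 in edgeR. Sod1, of the cytosol, was at 92.1 ± 2.83 against 96.3 ± 4.65 CPM (fold 0.957, 0.899 to 1.02). Sod2, of mitochondria, was at 129 ± 6.46 against 124 ± 8.96 CPM (fold 1.04, 0.954 to 1.13). Sod3, which is secreted, was at 13.5 ± 2.09 against 15.4 ± 2.18 CPM (fold 0.873, 0.732 to 1.04), and Cat, the peroxisomal catalase, at 64.3 ± 2.91 against 69.4 ± 7.40 CPM (fold 0.926, 0.835 to 1.03). The smallest adjusted p of these 4 genes was 0.333.

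Metallothioneins bind zinc and copper and scavenge radicals; Mt1 and Mt2 respond to metals, stress hormones and oxidants, and Mt3 is mostly a brain form. Per kilobase of transcript they were among the most abundant members: by the longest annotated transcript Mt3 stood at 410, Mt2 at 204 and Mt1 at 178 CPM per kilobase over all libraries, ahead of Gstm5 at 164. By the median transcript length Mt3 still stood first at 460, followed by Mt1 at 305, Akr1a1 at 265 and Prdx5 at 261 CPM per kilobase, so the order below Mt3 depends on the transcript assumed. Mt1 was at 209, 164, 203, 170 and 190 CPM in the AC-T mice and at 175, 201 and 210 CPM (lowest, median, highest) in the saline mice, a fold of 0.944 (0.848 to 1.05, adjusted p = 0.514). Mt2 was at 118, 91.9, 120, 93.0 and 106 CPM in the AC-T mice and at 90.5, 102 and 117 CPM in the saline mice, a fold of 1.03 (0.894 to 1.18, adjusted p = 0.844). Mt3 was at 215 ± 21.6 against 223 ± 8.62 CPM (fold 0.964, 0.877 to 1.06, adjusted p = 0.660). For Mt1 and Mt2 the same mice, AC-T 501 and 503, had the highest AC-T values, and these libraries also had the highest astrocyte marker sums (7327 and 7217 CPM). The part of the astrocyte markers in that pattern was not tested. All 3 genes held the metal response element core (TGCACNC or TGCGCNC on either strand) in a promoter window. So did 22 of the 62 members with a window (35.5%) and 28.2% of all genes with one.

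Of the members, 9 were taken as textbook targets of NRF2: Hmox1, Nqo1, Gclc, Gclm, Gsr, Srxn1, Txnrd1, Txn1 and Prdx1. That choice does not cover every member that NRF2 may control. None of these 9 passed in edgeR or DESeq2, though 3 (Gclc, Gsr and Srxn1) had an unadjusted p under 0.05 in edgeR. Their folds ran from 0.907 to 1.09, and their 95% intervals together spanned 0.772 to 1.27. The antioxidant response element core was found in the windows of Gclm, Prdx1, Txnrd1 and Srxn1 among them. Stretches around the match are shown for Gclm (chr3:122245397-122245457), Prdx1 (chr4:116685440-116685500) and Txnrd1 (chr10:82859088-82859148, in 1 of its 3 windows), with Sod1 (chr16:90220680-90220740), a dismutase gene with a match, for comparison. They are from GRCm38.p6 and RefSeq, all on the plus strand, and capitals mark the core, which in each of them reads on the opposite strand. A match is a description of letters and not evidence of binding.
Gclm: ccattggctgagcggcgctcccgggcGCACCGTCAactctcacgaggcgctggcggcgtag
Prdx1: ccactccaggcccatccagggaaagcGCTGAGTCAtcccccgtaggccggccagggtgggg
Txnrd1: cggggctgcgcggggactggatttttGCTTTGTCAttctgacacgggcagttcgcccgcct
Sod1: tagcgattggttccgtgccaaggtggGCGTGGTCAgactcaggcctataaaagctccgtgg

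Nqo1, which reduces quinones in a single step that avoids superoxide, was at 7.31, 7.58, 7.19, 9.75 and 7.45 CPM in the AC-T mice and at 5.80, 7.64 and 11.2 CPM (lowest, median, highest) in the saline mice. The AC-T values lay within the wider saline range, and the fold was 0.990 (0.772 to 1.27, adjusted p = 0.971). Hmox1, the inducible enzyme that breaks down haem, was at 4.12, 5.22, 4.72, 5.14 and 5.07 CPM in the AC-T mice and at 4.31, 4.63 and 6.12 CPM in the saline mice (fold 1.01, 0.853 to 1.19, adjusted p = 0.972). Its constitutive relative Hmox2 was at 71.7 ± 1.86 against 67.3 ± 5.42 CPM (fold 1.07, 0.983 to 1.16, adjusted p = 0.317).

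Glutathione is made by glutamate-cysteine ligase, whose catalytic subunit is Gclc and whose modifier subunit is Gclm, and Gsr returns its oxidised form to use. Gclc was at 53.0, 55.2, 50.4, 55.6 and 53.2 CPM in the AC-T mice and at 48.8, 50.3 and 51.9 CPM (lowest, median, highest) in the saline mice, a fold of 1.06 (1.00 to 1.12, adjusted p = 0.164). Gclm was at 69.8 ± 3.61 against 71.7 ± 1.33 CPM (fold 0.974, 0.919 to 1.03, adjusted p = 0.597). Gsr was at 22.4 ± 1.00 against 20.6 ± 1.07 CPM (fold 1.09, 1.01 to 1.17, adjusted p = 0.132). Srxn1, which repairs overoxidised peroxiredoxins, was at 84.0, 85.0, 91.8, 79.1 and 85.5 CPM in the AC-T mice and at 82.8, 93.9 and 106 CPM in the saline mice. Its fold was 0.907 (0.824 to 0.998, adjusted p = 0.191), and 4 of the 5 AC-T values lay within the saline range.

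**Figure D3:**
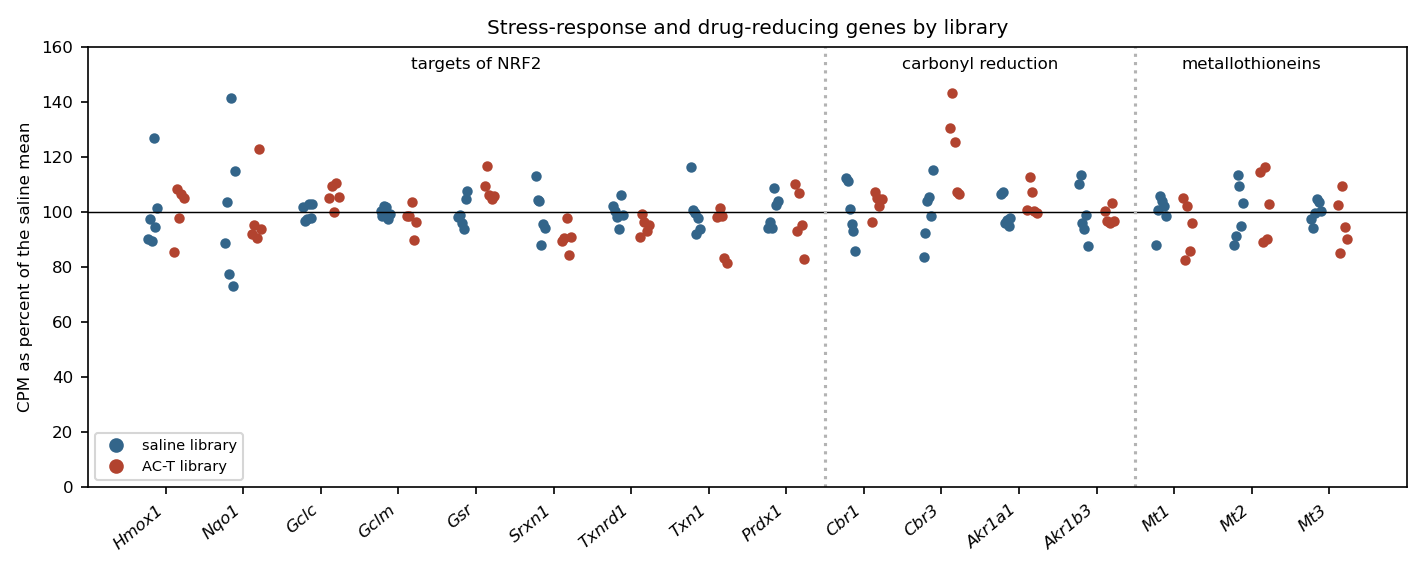
The y axis is the CPM of each library as a percent of the saline mean of that gene, for 9 targets of NRF2, 4 reductases and 3 metallothioneins, with saline libraries in blue and AC-T libraries in red. Cbr3 spans 83.9% to 143%, Hmox1 85.4% to 127% and Nqo1 73.1% to 142% over the 11 libraries, and in each gene shown the groups overlap.

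Summed by family, the AC-T libraries overlapped the saline libraries in all 11 families. The glutathione peroxidases had the lowest AC-T library, at 76.6% of the saline mean, and their AC-T libraries reached 100.1%, against 93.2% to 114.5% in the saline libraries. The peroxiredoxins with sulfiredoxin summed to 838 ± 57.9 CPM after AC-T and 882 ± 20.9 CPM after saline. The transferases summed to 611 ± 42.1 and 639 ± 14.1 CPM. The carbonyl reductases stood at 64.9 ± 2.32 and 61.9 ± 4.34 CPM, and the haem oxygenases with Nqo1 at 84.4 ± 2.62 and 80.0 ± 5.03 CPM.

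**Figure D4:**
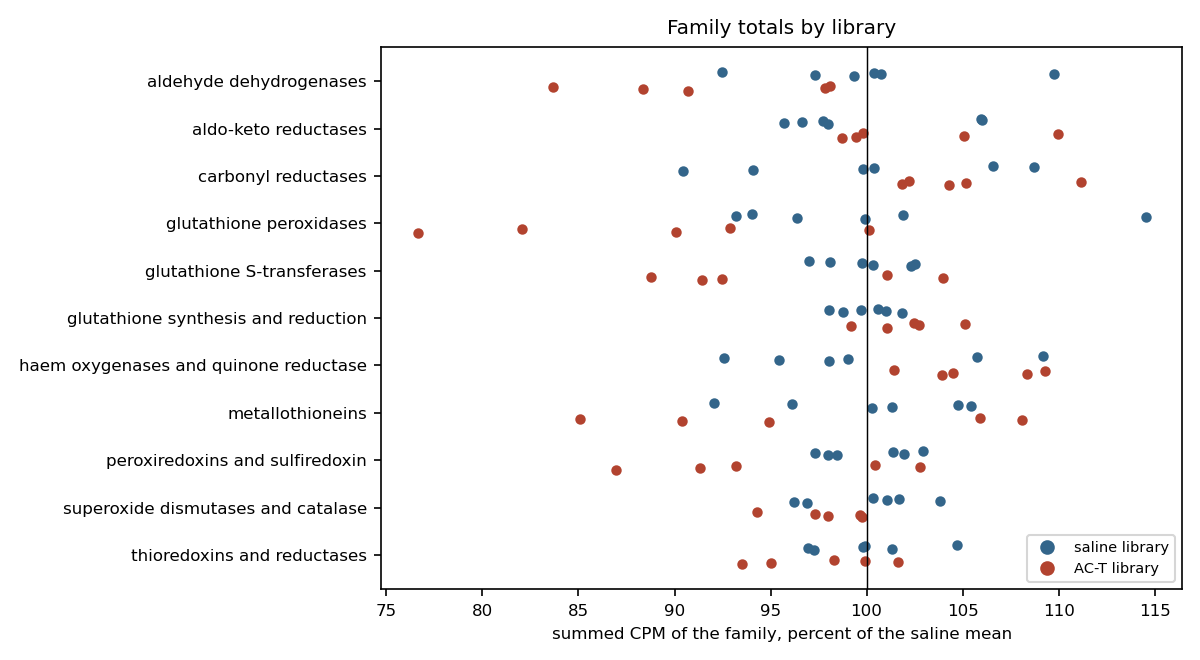
The x axis, which does not start at 0, is the summed CPM of each family in a library as a percent of its saline mean (vertical line), and the y axis lists the 11 families, with saline libraries in blue and AC-T libraries in red. The ranges overlap in every family, and the glutathione peroxidases reach lowest, at 76.6%.

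Some members varied between mice of the same group more than the means of the groups differed. Over the 6 saline libraries, as a percent of the saline mean, Gpx8 spanned 50.6% to 198%, Gpx3 63.8% to 161% and Cbr2 46.7% to 154%. Aldh1a2 spanned 62.0% to 157% and Gstm2 74.1% to 160%. These and the genes below are named after their values were seen. Gpx3, Cbr2, Aldh1a2 and Gstm2 were highest in saline 202, which also had the highest sum of 5 blood markers (757 CPM, against 120 to 511 CPM in the other libraries). For 8 meningeal fibroblast markers saline 202 had the next highest sum (333 CPM), after saline 300 (391 CPM). The part of blood or meningeal tissue in these values was not tested. Another pattern was that of Gpx8. This peroxidase of the endoplasmic reticulum was at 4.45, 5.09, 7.02, 11.4 and 6.79 CPM in the AC-T mice and at 3.32, 5.04 and 13.0 CPM (lowest, median, highest) in the saline mice (fold 1.06, 0.629 to 1.79, adjusted p = 0.914). Saline 300 had its highest value and AC-T 600 the next. The same libraries had the highest Nqo1 (11.2 and 9.75 CPM). Saline 300 had the highest Hmox1, which spanned less (89.4% to 127% over the saline libraries). They also had the highest summed level of 10 choroid plexus and ependymal markers, at 5674 CPM in saline 300 and 5540 CPM in AC-T 600, against 29.9 to 2995 CPM in the other libraries. Of these 10 markers 0 passed between treatments, and 6 were listed at 0 in at least 1 library. The part of choroid plexus tissue in these values was not tested.

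**Figure D5:**
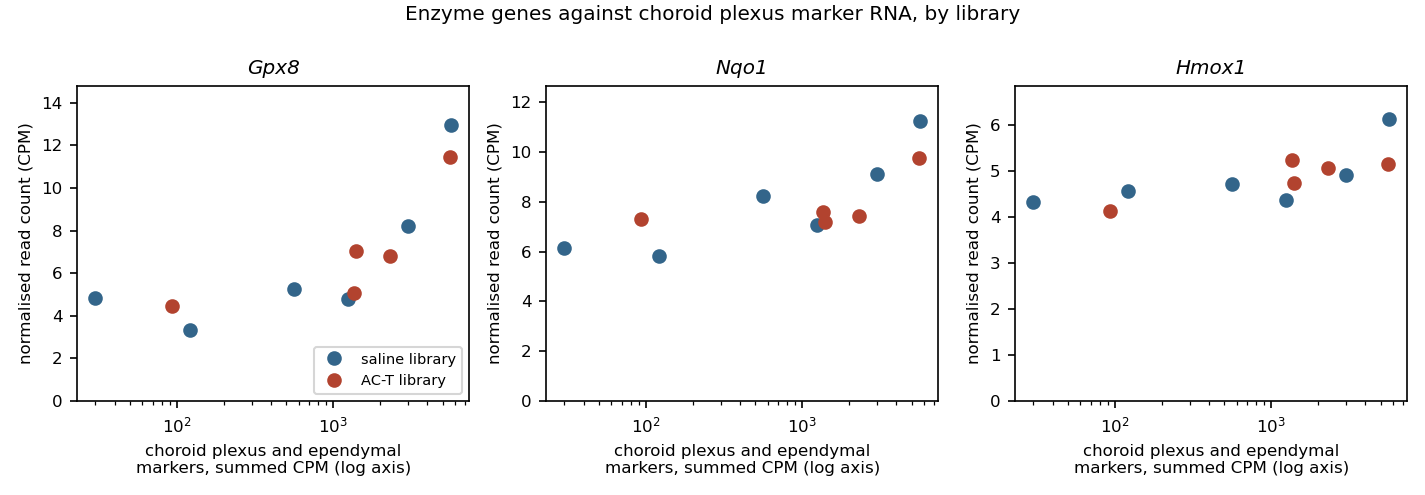
Each point is a library; the x axis (log scale) is the summed CPM of 10 choroid plexus and ependymal markers, and the y axis the CPM of Gpx8, Nqo1 or Hmox1, with saline in blue and AC-T in red. Saline 300 and AC-T 600, at 5674 and 5540 CPM of marker RNA, have the highest Gpx8 and Nqo1, and saline 300 has the highest Hmox1.

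Between the series of mice within a treatment 0 members passed. In saline, series 3 against series 2, 158 genes passed (1.03% of all), and the smallest adjusted p among the members was 0.0880 for Cbr1 (log2 difference −0.24) and 0.0990 for Srxn1 (−0.21). An unadjusted p under 0.05 was reached by 16 members (21.9%) against 20.1% of all genes. In AC-T, series 6 against series 5, 18 genes passed (0.117% of all), and the smallest adjusted p was 0.174, for Gstm5 (−0.29) and Txn1 (−0.27). Here 8 members (11%) reached an unadjusted p under 0.05 against 13.5% of all genes. The median absolute log2 difference of the members was 0.13 between the saline series and 0.10 between the AC-T series. Between treatments it was 0.09 for the members and 0.11 for all genes. The series contrasts rest on fewer mice than that between treatments, and fewer mice raise such a median. These values therefore do not rank series against treatment.

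For 5 members a 0 was listed in at least 1 library. Their lowest value above 0 was 21 counts, so a 0 was read as a level under a limit and no fold is given. Akr1b8 had a listed 0 in each of the 5 AC-T libraries and 23, 0, 33, 0, 29 and 31 listed counts in saline 201, 202, 203, 300, 301 and 302. Akr1c18, a steroid dehydrogenase that inactivates progesterone, was listed at 56, 67, 40, 62 and 84 counts in the AC-T mice and at 0, 22, 0, 45, 26 and 49 counts in the saline mice (adjusted p = 0.403). Aldh3a1, Gsta3 and Gsto2 had listed zeros in both groups.

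Of 141 tested genes in 7 lists of related function, 1 rose and 4 fell, against 8.47% of all genes tested. With the thalamic or endothelial score as covariate 0 passed, where 1 and 8 of all genes did. Without saline 201 there were 5 that rose, where 7.78% of all genes passed. None of the 10 genes that control NRF2 passed in edgeR (2 at an unadjusted p under 0.05): Nfe2l2 itself was at 20.9 ± 2.23 against 22.5 ± 3.50 CPM (fold 0.929, 0.790 to 1.09, adjusted p = 0.593), and Keap1 had a fold of 1.01 (0.950 to 1.07, adjusted p = 0.908). The smallest p in that list belonged to Cul3, the ubiquitin ligase scaffold that works with Keap1, at 134 ± 6.77 against 119 ± 5.69 CPM (adjusted p = 0.0510). Of the 17 genes that supply NADPH, the reductant of these enzymes, 1 fell. G6pdx, the first enzyme of the pentose phosphate pathway, was at 34.9, 29.8, 33.3, 32.9 and 35.1 CPM in the AC-T mice and at 37.0, 39.2 and 42.8 CPM (lowest, median, highest) in the saline mice, with no overlap. Its mean fell from 39.6 ± 2.05 to 33.2 ± 2.13 CPM (fold 0.838, 0.776 to 0.906, adjusted p = 0.0147; 0.0704 with series as a random effect).

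Of 46 other genes of drug metabolism 1 rose and 1 fell. Ephx4, of the epoxide hydrolase family, was at 30.6, 35.6, 33.9, 32.0 and 33.3 CPM in the AC-T mice and at 20.9, 22.6 and 26.1 CPM (lowest, median, highest) in the saline mice, so the groups did not overlap. It rose 1.43-fold (1.31 to 1.57, adjusted p = 0.00126; 0.0117 with series as a random effect). Cyp2j6, a cytochrome P450, fell to 0.815 of its saline level (0.750 to 0.885), from 30.9 ± 0.606 to 25.2 ± 2.23 CPM (adjusted p = 0.0108; 0.0364 with series as a random effect).

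Of 12 genes whose enzymes release superoxide or hydrogen peroxide 2 fell, both encoding peroxisomal oxidases that give off hydrogen peroxide. Pipox, which oxidises pipecolic acid and sarcosine, fell from 3.28 ± 0.412 to 1.79 ± 0.365 CPM (fold 0.545, 0.413 to 0.721, adjusted p = 0.0167; 0.0579 with series as a random effect). Acox3, an acyl-CoA oxidase for branched chains, fell from 37.5 ± 1.19 to 34.1 ± 1.42 CPM (fold 0.910, 0.859 to 0.964, adjusted p = 0.0477). Acox3 had an adjusted p of 0.181 with series as a random effect, and of the 11 fits without 1 library it passed in 1, that without AC-T 503. The remaining lists had 0 genes past the threshold: glutathione transport and glutaredoxins (0 of 23, 4 at an unadjusted p under 0.05), thioredoxin partners and sulfoxide repair (0 of 14, 2 unadjusted), and iron and zinc handling (0 of 19, 2 unadjusted). Their smallest adjusted p values in edgeR were 0.0527 for Mgst1, 0.0768 for Msrb2 and 0.0995 for Pcbp1.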

How the data were processed

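The values deposited by the authors are expected counts per gene, estimated with Salmon 1.9.0 per the submitters' processing notes, which also name Dragen 4.3.6, FastQC 0.11.9 and the build GRCm39. Reads that fit several similar genes are divided by estimation. The annotation release and the selection of genes are not given in the sources used here. Rounded counts entered the 2-sided quasi-likelihood test of edgeR 4.0.16 (R 4.3.3), scaled by TMM, for genes kept by filterByExpr at a minimum count of 10. Benjamini-Hochberg adjustment ran over all 15353 genes tested, and adjusted p values under 0.05 passed. CPM values are scaled by the TMM factors. Levels per kilobase use GENCODE M21 transcript lengths. Promoter windows are from RefSeq (GRCm38.p6), and 62 of 75 members had one.

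Libraries are separate mice, and their replicate numbers are mouse numbers that do not pair across treatments. The members, the related lists, the marker lists, the tests and the alternatives were chosen with earlier results of these data known. Of the members 32 were named by rule: every gene past the threshold, the most abundant and the smallest p of each family, and 20 genes whatever their values; others are named for context. Alternatives were RLE and upper-quartile factors, library totals, other count filters, a robust dispersion, unrounded values, DESeq2 1.42.0, limma-voom (limma 3.58.1), series as a random effect, marker scores as covariates, and omission of each library or series. The code was tested on simulated data. The series gives 6 as the size of each group, and 5 AC-T samples were used here.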

Additional observations from a re-analysis of the deposited data

Results flagged for a closer look

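A single library stood apart from the rest of its group for 4 of the genes named, among 64 groups looked at; by chance about 1 in 20 groups would do so. Aldh1a1 reached 160.1 CPM in saline 300, where the next saline library was at 146.5 CPM. Hmox1 was at 6.12 CPM in saline 300 and at no more than 4.90 CPM in the other saline libraries. Nqo1 was at 9.75 CPM in AC-T 600 and at no more than 7.58 CPM in the other AC-T libraries. Txn1 was at 57.6 CPM in saline 201, with the next saline library at 49.9 CPM. Saline 300 is the library in which Xist was listed at 0.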

How the results depend on the processing

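The fit reported above called 1 member higher and 3 lower. Lower calls were 5 with upper-quartile factors, 5 with library totals, 9 with DESeq2 (2 higher) and 7 at an adjusted p under 0.1 (2 higher, and 14.9% of all genes). With series as a random effect 1 was lower (Aldh1a1), and with the thalamic, astrocyte or endothelial score as covariate 0 were higher and 0 lower. Without saline series 2 there was 1 lower. Without AC-T series 5 there were 0 higher and 1 lower, and without AC-T series 6 there were 0 of either. In these random-effect, covariate and series fits the calls over all genes fell as well, to the shares given above. Leaving out 1 library gave 1 higher each time and 1 to 6 lower: 6 without AC-T 503, and 1 without AC-T 502, 600 or 602 or saline 202. Of the related genes (1 higher and 4 lower), 2 were higher at a minimum count of 50, with genes above 0 throughout, with limma-voom, and without saline series 2 or 3. DESeq2 gave 7 higher and 13 lower, and an adjusted p under 0.1 gave 5 and 7. The random effect gave 1 lower (Cyp2j6), the thalamic and endothelial scores 0 and 0, and the astrocyte score 0 lower. Without saline series 2, AC-T series 5 and AC-T series 6 there were 0, 2 and 1 lower. Without 1 library there were 1 to 5 higher (5 without saline 201) and 3 to 6 lower. Between the saline series 1 member passed with library totals and 2 at an adjusted p under 0.1, and omission of a library gave 0 to 1 in either series contrast. No member or related gene called in the fit reported above changed sign in the other fits of AC-T against saline. The causes were not tested. Precision is limited by the number of mice.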

Other observations

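With the astrocyte marker score as covariate Mt2 had the smallest p of all members, with a log2 difference of 0.27 ± 0.06 (SE, adjusted p = 0.0587 in edgeR), against 0.04 ± 0.09 without it. With the endothelial score the log2 difference of Mt2 was 0.29 ± 0.08 (adjusted p = 0.254). In the astrocyte fit 0 members passed, and 12 of 73 members and 2328 of 15353 genes had an unadjusted p under 0.05 in edgeR. Mt1 and Mt3 did not share the rise: over all fits their log2 differences reached at most 0.08 and 0.09. At an adjusted p under 0.1 the members past the threshold numbered 9 of 73 (12.3%), against 14.9% of all genes: the 4 genes above with Txnrd3, Aldh4a1, Gpx1, Akr1b10 and Cbr3.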
